A study of Mus musculus with 6 samples.

Results

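Semaphorins are guidance proteins, plexins and neuropilins are their receptors, and Crmp1 and the Dpysl genes encode cytoplasmic proteins that act downstream of them. Their expression was compared between mouse dorsal root ganglia (DRG) and spinal cord (SC), both lumbar. The genes were taken by symbol from the platform annotation as Sema3 to Sema7, the A to D plexins, Nrp1 and Nrp2, and Crmp1 with Dpysl2 to Dpysl5, using probe sets that name a single gene. This gave 89 of the 45101 probe sets on the array and 36 of 18192 genes, comprising 20 semaphorins, 9 plexins, 2 neuropilins and 5 Crmp and Dpysl genes. The DRG group was left and right ganglia from L1 to L6 of male C57BL/6J mice aged 3 months, and the SC group was the spinal cord at the same levels of mice of the same strain, sex and age. Each group had 3 arrays, each from an independent pool of 4 mice, so that differences between single animals are averaged within a pool.

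Semaphorins bind plexins, whose cytoplasmic part acts on small GTPases and so on the growth cone's actin and microtubules. Most secreted class 3 semaphorins need a neuropilin as the ligand-binding partner of an A plexin, whereas the membrane-bound classes bind plexins directly. Sensory axons of the DRG are a classical target of Sema3a repulsion, and in adults several of these genes are also expressed by glia, blood vessels and connective tissue. A DRG holds sensory neuron bodies, satellite glia, Schwann cells, vessels and connective tissue, while the spinal cord holds interneurons, motor neurons, astrocytes, oligodendrocytes and the central ends of sensory axons, whose cell bodies are elsewhere.

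Values are MAS5 signals, an array's brightness summary for a probe set, recovered from the deposited ratios and kept on the deposited scaling of the arrays. A difference is DRG minus SC on log2(signal + 16), tested with limma over 45031 probe sets, and a call is a Benjamini-Hochberg adjusted p under 0.05. A gene is described by its brightest probe set, and signals of different probe sets cannot be set against each other. The direction of small differences depends on how the arrays are scaled, so results are also given where they change with 2 others. These are quantile normalization and the recovered MAS5 signals before the submitters' array factor, called unscaled or without scaling here. Unscaled signals were already at a common level, with a trimmed mean between 247.3 and 247.5 on every array. Over all 18192 genes the median difference was 0.18 on the deposited scaling, 0.041 with quantile normalization and -0.10 without scaling. A gene is called not above background in a tissue if all 3 arrays lay at or under the 95th percentile of 45 probe sets of genes not expected in either tissue, which was between 119 and 206. A fold over such a tissue is a lower bound.

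Most marker lists differed between the tissues. The summed signal of 6 sensory neuron genes was 28555 to 29720 in DRG and 492 to 650 in SC, and that of 6 genes of spinal neurons was 272 to 280 in DRG and 9474 to 9817 in SC. Of the spinal neuron genes 5 were called higher in SC, while Chat was not called and not above background in either tissue. For 5 measured oligodendrocyte genes the sums were 678 to 843 in DRG and 10297 to 11338 in SC, and for 6 astrocyte genes 652 to 778 in DRG and 17136 to 19352 in SC. For 4 measured Schwann cell genes they were 17622 to 19383 in DRG and 4360 to 4940 in SC, with 3 called higher in DRG and Sox10 not called. For 6 genes of fibroblasts and perineurium the sums were 13936 to 14933 in DRG and 3016 to 3266 in SC. Of these, 5 were called higher in DRG and Slc2a1 was called higher in SC. For 5 endothelial genes the sums were 834 to 1033 in DRG and 905 to 1049 in SC, and 1 of the 5 was called in each direction. The 4 satellite glia genes split, with Fabp7 and Cadm1 called higher in DRG and Gja1 and Kcnj10 higher in SC, and summed to 10317 to 11313 in DRG and 6658 to 6909 in SC. Of 5 genes of microglia and macrophages 1 was called higher in DRG and 3 in SC, with sums of 1537 to 1715 in DRG and 2239 to 2512 in SC. Of 4 genes of smooth muscle and pericytes 3 were called higher in DRG, with sums of 3836 to 4125 in DRG and 2321 to 2333 in SC. Skeletal muscle genes, which no group should hold, summed to 360 to 1320 in DRG and 357 to 1541 in SC, with DRG replicate 3 and SC replicates 2 and 3 high. In whole tissue, fewer cells of a type and less RNA per cell cannot be told apart, and the part of these cell types in the differences below was not tested.

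Over all genes 41.5% were called in either direction. Of the 36 genes, 19 (52.8%) were called higher in DRG and 7 (19.4%) higher in SC. Over all genes these shares were 31.8% and 9.7%, and whether the members differ from other genes was not tested. Every DRG array lay above every SC array for 21 genes and below for 8, where all genes gave 37.9% and 13.8%. Differences of at least 2-fold were called for 12 genes toward DRG and 4 toward SC, against a background of 11.5% and 4.77%. The members' median difference of 0.44 became 0.17 with quantile normalization and 0.10 without scaling. On each of these, 14 genes were called toward DRG and 10 toward SC. All genes gave 20.5% toward DRG and 16% toward SC with quantile normalization, and 19.3% and 19.7% without scaling. On all 3 scalings, 14 genes were called higher in DRG and 7 in SC, against 17.4% and 9.49% of all genes.

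**Figure D1:**
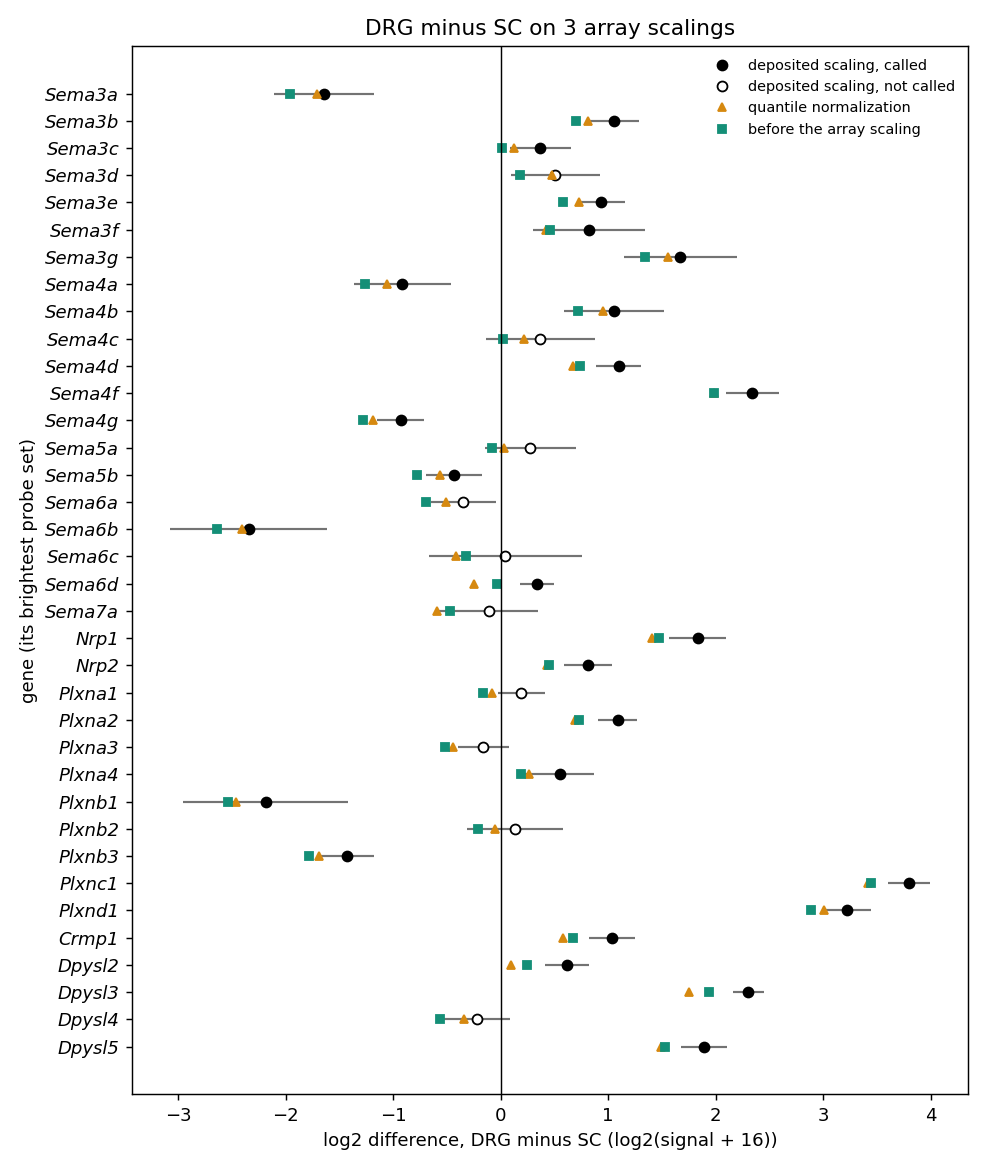
Log2 difference DRG minus SC of the 36 genes (x axis) on the deposited scaling, as circles with 95% intervals. Triangles show quantile normalization and squares the unscaled signals, taken before the submitters' array factor. Filled circles passed limma's test. Plxnc1 and Plxnd1 lie farthest to the right and Sema6b and Plxnb1 farthest to the left on every scaling, while Sema6d and 4 genes without a call lie on both sides of 0.

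Class 3 semaphorins are the secreted ligands. Of 7 genes, 5 were called higher in DRG, where all genes gave 31.8%, and 1, Sema3a, higher in SC, where all genes gave 9.7%. On both other scalings 3 were called higher in DRG and 1 in SC. All genes there gave 20.5% and 19.3% higher in DRG, and 16% and 19.7% higher in SC. Sema3a, which repels axons that carry Nrp1, had signals of 63.4, 82.7 and 46.5 in DRG pools, against 253, 234 and 207 in SC pools. Every DRG pool lay below every SC pool and none was above background. Sema3a was at least 1.45-fold higher in SC, with a log2 difference of -1.64 (95% interval -2.11 to -1.18, limma adjusted p = 0.000188). A further Sema3a probe set differed by -1.52 (limma adjusted p = 0.00339), but it was not above background in either tissue.

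Sema3g, a ligand known from blood vessels, had signals of 271, 275 and 349 in DRG pools, against 52.0, 94.5 and 109 in SC pools. The tissues did not overlap and no SC pool was above background, which gave at least 1.92-fold and a difference of 1.67 (limma adjusted p = 0.000389). Beside it, the endothelial genes Cdh5 and Cldn5 were called in opposite directions and Pecam1, Tek and Kdr were not called, while 3 of 4 genes of smooth muscle and pericytes were called higher in DRG. Sema3b, a neuropilin ligand, had signals of 508, 448 and 469.9 in DRG pools, against 218, 203 and 241 in SC pools, a difference of 1.05 (limma adjusted p = 3.92e-05). All 3 Sema3b probe sets are of the cross-matching kind, whose suffix marks a match to more than a single transcript. Their suffix holds an a, and these transcripts can be of the same gene. The other 2 were not called, and the mean of the 3 was not called either, at 0.56 (limma adjusted p = 0.0894). Sema3e, which binds Plxnd1 without a neuropilin, had signals of 379, 397 and 387 in DRG pools, against 187, 208 and 192 in SC pools. The DRG pools lay closely together above the SC pools, at 1.99-fold (limma adjusted p = 6.13e-05). All 4 Sema3e probe sets were called higher in DRG, the brightest with the smallest difference at 0.93, though 2 of them were not above background in either tissue.

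Differences of the remaining class 3 genes depended on the processing. Sema3f, the ligand of Nrp2, had signals of 805, 597 and 1058 in DRG pools, against 474, 324 and 572 in SC pools on a probe set of the cross-matching kind. The pools of both tissues were widely spread but did not overlap, and all 3 probe sets of the gene were called higher in DRG on the deposited scaling. The difference of 0.82 (limma adjusted p = 0.0218) was 0.42 under quantile normalization (limma adjusted p = 0.215) and 0.46 with unscaled signals (limma adjusted p = 0.147). It was not called without DRG replicate 1, DRG replicate 3 or SC replicate 2 (limma adjusted p = 0.0651, 0.0784 and 0.0726). With cross-matching probe sets set aside, the value for Sema3f was 1.40 (limma adjusted p = 0.0195), but from a probe set that was not above background in either tissue. Sema3c, which binds both neuropilins, had signals of 355, 403 and 350.0 in DRG pools, against 336, 262 and 254 in SC pools. Its call at 0.37 (limma adjusted p = 0.0492) was lost under 13 of 17 alternatives. Among them was the omission of any single pool except SC replicate 1, with limma adjusted p between 0.0746 and 0.155. The other Sema3c probe set went the opposite way without a call, at -0.33 (limma adjusted p = 0.238). Its DRG pools all lay below its SC pools, and no DRG pool was above background. With unscaled signals alone it was called higher in SC, at -0.66 (limma adjusted p = 0.0254). Sema3d had signals of 155, 128 and 129.5 in DRG pools, against 77.5, 95.8 and 103 in SC pools and was not called at 0.51 (95% interval 0.095 to 0.92, limma adjusted p = 0.0628), although its pools did not overlap.

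**Figure D2:**
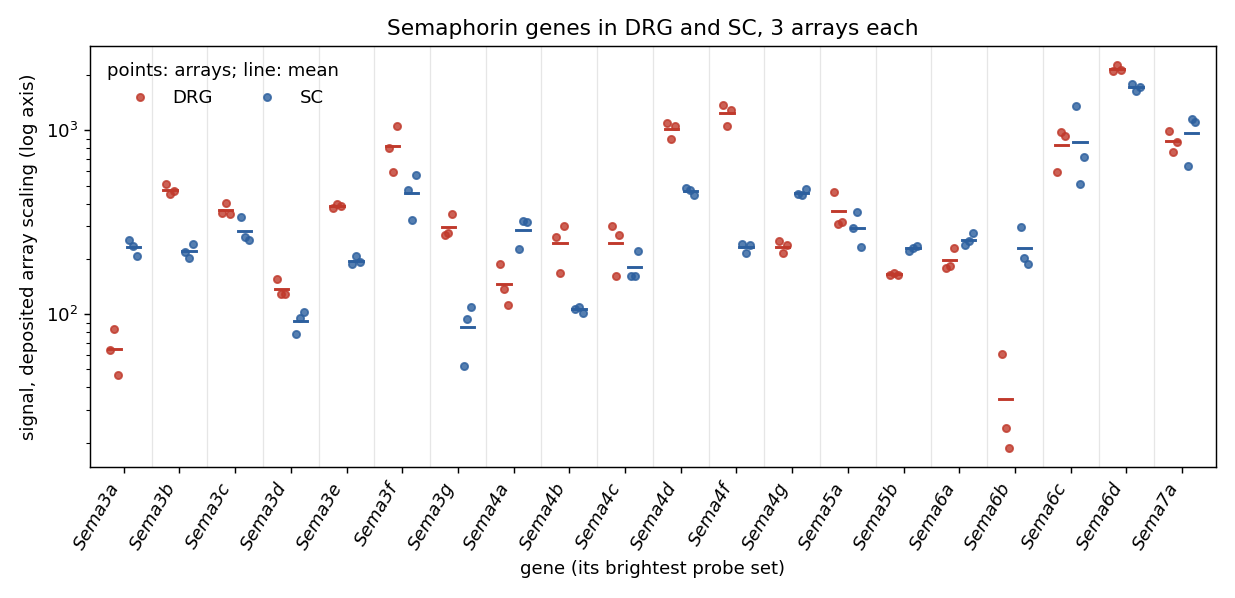
Signals of the 20 semaphorin genes on each array (log y axis, deposited scaling), DRG in red and SC in blue, with a line at the mean of 3 pools. Sema4f stands at 1062 to 1376 in DRG and 215 to 242 in SC, and Sema3a and Sema6b are the genes whose DRG pools lie at or under background while their SC pools do not. Heights of different genes cannot be compared.

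Class 4 semaphorins span the membrane. By brightest probe set, 3 of the 6 had a call toward DRG on all 3 scalings, namely Sema4b, Sema4d and Sema4f. Calls toward SC on all 3 scalings were found for 2, Sema4a and Sema4g. The shares of all genes with such calls were 17.4% toward DRG and 9.49% toward SC. Sema4d is counted toward DRG by its brightest probe set only, since its probe sets were called in opposite directions, as described below. Sema4f had signals of 1376, 1062 and 1291 in DRG pools, against 242, 215 and 237 in SC pools, or 5.35-fold, with a difference of 2.34 (95% interval 2.10 to 2.59, limma adjusted p = 3.32e-07). This probe set is of the cross-matching kind, and the gene's other probe set, which is not, gave 812, 715 and 746 in DRG pools, against 194, 243 and 227 in SC pools. Both probe sets thus showed the DRG pools far above the SC pools. Sema4b had signals of 263, 167 and 301 in DRG pools, against 107, 109 and 102 in SC pools, with no SC pool above background and a fold of at least 1.53 (limma adjusted p = 0.00315). DRG replicate 2 was lower than the other DRG pools but still above every SC pool. Averaging Sema4b over its 2 probe sets ended the call, at 0.50 (limma adjusted p = 0.122), though the other probe set was not above background in either tissue.

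Toward SC, Sema4g had signals of 249, 214 and 237 in DRG pools, against 453, 443 and 479 in SC pools, 1.97-fold higher in SC (limma adjusted p = 6.03e-05). Sema4a, known also as a ligand on immune cells, had signals of 188, 137 and 112 in DRG pools, against 225, 321 and 316 in SC pools, with a difference of -0.92 (limma adjusted p = 0.00589). Its second probe set was called in the same direction at -1.37 (limma adjusted p = 0.00022), with no DRG pool above background. Neither gene's pools overlapped between tissues. Sema4c, the ligand of Plxnb2, had signals of 301, 161 and 269 in DRG pools, against 161, 161 and 221 in SC pools, which overlapped, and was not called at 0.37 (95% interval -0.14 to 0.88). Without DRG replicate 2, the low DRG pool, it was called at 0.62 (limma adjusted p = 0.022).

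Sema4d, the ligand of Plxnb1 on many cells, had probe sets called in opposite directions. The brightest gave 1102, 902 and 1062 in DRG pools, against 486, 472 and 445 in SC pools, a difference of 1.10 (95% interval 0.89 to 1.30, limma adjusted p = 1.43e-05). A second gave 221, 181 and 292 in DRG pools, against 109, 143 and 68.3 in SC pools, called in the same direction at 1.03 (limma adjusted p = 0.0112). The third gave 40.8, 65.8 and 62.7 in DRG pools, against 470.2, 549 and 406 in SC pools. There the DRG pools were not above background, and SC was at least 2.96-fold higher with a difference of -2.77 (95% interval -3.19 to -2.35, limma adjusted p = 3.25e-06). All 3 directions held on the other scalings, although the call of the second was lost with unscaled signals (limma adjusted p = 0.0574). The mean of the 3 probe sets was -0.21 and was not called (limma adjusted p = 0.275), so the gene as a whole has no settled direction. Which transcripts these probe sets match was not analysed here.

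Among class 5 semaphorins, which carry thrombospondin repeats, Sema5b was higher in SC and Sema5a was not called. Sema5b had signals of 164, 167 and 163 in DRG pools, against 220.2, 229.8 and 235 in SC pools, with tight and separate pools and a difference of -0.44 (limma adjusted p = 0.0156). It was not called without SC replicate 2 or SC replicate 3 (limma adjusted p = 0.0583 and 0.0576). Sema5a had signals of 465, 309 and 317 in DRG pools, against 296, 359 and 233 in SC pools, at 0.28 (limma adjusted p = 0.325), and -0.078 with unscaled signals. A second Sema5a probe set was called higher in DRG on the deposited scaling alone, at 0.43 (limma adjusted p = 0.0158). Another went the opposite way without a call, at -0.59 (limma adjusted p = 0.0711), with no DRG pool above background. With unscaled signals alone it was called higher in SC, at -0.91 (limma adjusted p = 0.00937). The remaining Sema5a probe set was not called and not above background in either tissue.

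Class 6 semaphorins are membrane-bound ligands of A plexins. Sema6b, a ligand of Plxna4, had signals of 60.8, 24.1 and 18.7 in DRG pools, against 299.9, 203 and 188 in SC pools. No DRG pool was above background, and the gene was at least 1.41-fold higher in SC with a difference of -2.35 (95% interval -3.08 to -1.61, limma adjusted p = 0.000371). Sema6a, a ligand of Plxna2 and Plxna4, had signals of 178, 182 and 229.9 in DRG pools, against 237, 249 and 275 in SC pools. Its pools did not overlap, and its difference of -0.35 was not called (limma adjusted p = 0.0773), while it was called under quantile normalization at -0.51 (limma adjusted p = 0.0138), with unscaled signals at -0.70 (limma adjusted p = 0.00269) and without DRG replicate 3 at -0.46 (limma adjusted p = 0.0312).

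Sema6d, a ligand of Plxna1, had no settled direction. Its brightest probe set gave 2102, 2269 and 2140.1 in DRG pools, against 1792, 1635 and 1724 in SC pools, called higher in DRG at 0.34 (limma adjusted p = 0.00429), but it was called higher in SC under quantile normalization at -0.25 (limma adjusted p = 0.0216) and not called with unscaled signals at -0.034. A second Sema6d probe set gave 477, 618 and 491 in DRG pools, against 791, 782 and 710.2 in SC pools, called higher in SC at -0.52 (limma adjusted p = 0.00435) and on the other scalings at -0.93 and -0.88. Sema6c had signals of 595, 975 and 937 in DRG pools, against 1356, 509 and 715 in SC pools, the widest spread among SC pools of the class, and was not called at 0.043 (95% interval -0.67 to 0.76).

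Sema7a, the lipid-anchored ligand of Plxnc1 and of beta-1 integrin, was not called on its brightest probe set. The signals were 991, 764 and 869.6 in DRG pools, against 642, 1159 and 1115 in SC pools, with SC replicate 1 below every DRG pool and the other SC pools above them. The difference was -0.11 (95% interval -0.57 to 0.35, limma adjusted p = 0.754). It was -0.38 and called without SC replicate 1 (limma adjusted p = 0.0397), and 0.039 and 0.011 without SC replicate 2 or 3. The summed signal of skeletal muscle genes was 357 in SC replicate 1 and 1333 and 1541 in SC replicates 2 and 3, and its part in the result was not tested. The second probe set of Sema7a gave 37.9, 39.6 and 41.5 in DRG pools, against 94.4, 174 and 75.8 in SC pools. It was called higher in SC at -1.16 (limma adjusted p = 0.0135). No DRG pool was above background there, and of the SC pools only SC replicate 2 was.

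Both neuropilins, the ligand-binding receptors of class 3 semaphorins that also bind vascular endothelial growth factors, were higher in DRG on all 3 scalings by their brightest probe set. Over all genes, 17.4% were called higher in DRG on all 3 scalings. Nrp1 had signals of 1337, 1651 and 1407 in DRG pools, against 342, 453 and 408 in SC pools. Every DRG pool was far above every SC pool, at 3.67-fold, with a difference of 1.83 (95% interval 1.57 to 2.10, limma adjusted p = 2.55e-06). All 4 Nrp1 probe sets were called in this direction, at 0.44 to 1.86, although the lowest was not called on the other scalings. Nrp2 had signals of 726, 771 and 804 in DRG pools, against 429, 484 and 383 in SC pools, 1.78-fold higher in DRG (limma adjusted p = 0.000163). Its difference of 0.81 was 0.43 under quantile normalization (limma adjusted p = 0.0101) and 0.45 with unscaled signals (limma adjusted p = 0.00642). Its other probe sets differed by 0.56, called on the deposited scaling alone, 0.67, not called with unscaled signals (limma adjusted p = 0.101), and -0.45, not called and not above background in either tissue.

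The A plexins, which signal for neuropilin-bound class 3 and for class 6 ligands, differed among themselves. Of 4, Plxna2 and Plxna4 were called higher in DRG, where all genes gave 31.8%, and Plxna1 and Plxna3 were not called. Plxna2 had signals of 944, 903 and 923 in DRG pools, against 463, 405 and 409 in SC pools, a difference of 1.09 (limma adjusted p = 6.11e-06). All 4 Plxna2 probe sets were called higher in DRG, at 0.63 to 1.09, and the brightest was called on every scaling. Plxna4 had signals of 467, 406 and 552 in DRG pools, against 346, 265 and 349 in SC pools, which did not overlap, and a difference of 0.55 (limma adjusted p = 0.0148). Its call was lost under 7 alternatives, among them both other scalings (0.26 and 0.19) and the omission of DRG replicate 3 or SC replicate 2 (limma adjusted p = 0.057 and 0.0538). The other Plxna4 probe set gave 162, 147 and 117 in DRG pools, against 199.6, 173 and 155 in SC pools, with no DRG pool above background. It was not called at -0.29 (limma adjusted p = 0.243). With unscaled signals alone it was called higher in SC, at -0.62 (limma adjusted p = 0.0175). Plxna1 had signals of 427, 355 and 398 in DRG pools, against 339.6, 351 and 336 in SC pools and a difference of 0.19 (95% interval -0.027 to 0.41) that was -0.084 and -0.17 on the other scalings, and its other probe set was called higher in SC at -0.69 (limma adjusted p = 0.0401) but was not above background in either tissue. Plxna3 had signals of 317, 361 and 349 in DRG pools, against 342, 413 and 402 in SC pools. It was not called at -0.16, but it was called higher in SC under quantile normalization at -0.44 (limma adjusted p = 0.0147) and with unscaled signals at -0.52 (limma adjusted p = 0.00571).

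The B plexins, receptors of class 4 semaphorins, were higher in SC in 2 of 3 cases, and the C and D plexins were higher in DRG. These directions held on all 3 scalings for each called gene. Over all genes, 17.4% were called higher in DRG and 9.49% in SC on all 3 scalings. Plxnc1, the receptor of Sema7a, had signals of 3117, 3216 and 3045 in DRG pools, against 209, 188 and 233 in SC pools. It was 15.0-fold higher in DRG, the largest difference of the 36 genes by brightest probe set, with a log2 difference in the 95% interval 3.61 to 4.00 (limma adjusted p = 8.29e-09). Of its 6 probe sets 5 were called in this direction, at 1.59 or more, and the other was not above background in either tissue. Plxnd1, the receptor of Sema3e and a gene known from blood vessels, had signals of 824, 816 and 813 in DRG pools, against 76.6, 68.6 and 75.0 in SC pools on its single probe set. No SC pool was above background, and Plxnd1 was at least 5.31-fold higher in DRG, with a difference of 3.22 (95% interval 3.00 to 3.45, limma adjusted p = 3.59e-08). With the probe sets of a gene averaged, the difference was 2.48 for Plxnc1, below that of Plxnd1. The summed signal of endothelial genes overlapped between the tissues, at 834 to 1033 in DRG and 905 to 1049 in SC. This sum combines Cdh5, called higher in DRG, and Cldn5, called higher in SC, with Pecam1, Tek and Kdr, which were not called. That of smooth muscle and pericyte genes, the other vessel-wall list, was 3836 to 4125 in DRG and 2321 to 2333 in SC. The part of either list in the result of Plxnd1 was not tested.

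Plxnb1, the receptor of Sema4d, had signals of 209, 60.9 and 177 in DRG pools, against 762, 642 and 599 in SC pools, 5.07-fold higher in SC, with a difference of -2.19 (95% interval -2.96 to -1.42, limma adjusted p = 0.0008). DRG replicate 2 was the lowest pool, and all DRG pools lay below all SC pools. A second Plxnb1 probe set gave 112, 109 and 94.2 in DRG pools, against 409, 350.1 and 438 in SC pools, with no DRG pool above background. Plxnb3, a plexin known from oligodendrocytes, had signals of 210.4, 172 and 202 in DRG pools, against 613, 511 and 536 in SC pools, 2.84-fold higher in SC with a difference of -1.43 (limma adjusted p = 1.02e-05), and its other probe set, which unlike the brightest is not cross-matching, differed by -1.23. All 5 measured oligodendrocyte markers were higher in SC too, Ermn and Opalin were not above background in DRG, and their part in the result of Plxnb3 was not tested. Plxnb2, the receptor of Sema4c, had signals of 224, 298 and 271 in DRG pools, against 312, 172 and 248 in SC pools, which overlapped, at 0.13 (95% interval -0.32 to 0.58, limma adjusted p = 0.684).

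**Figure D3:**
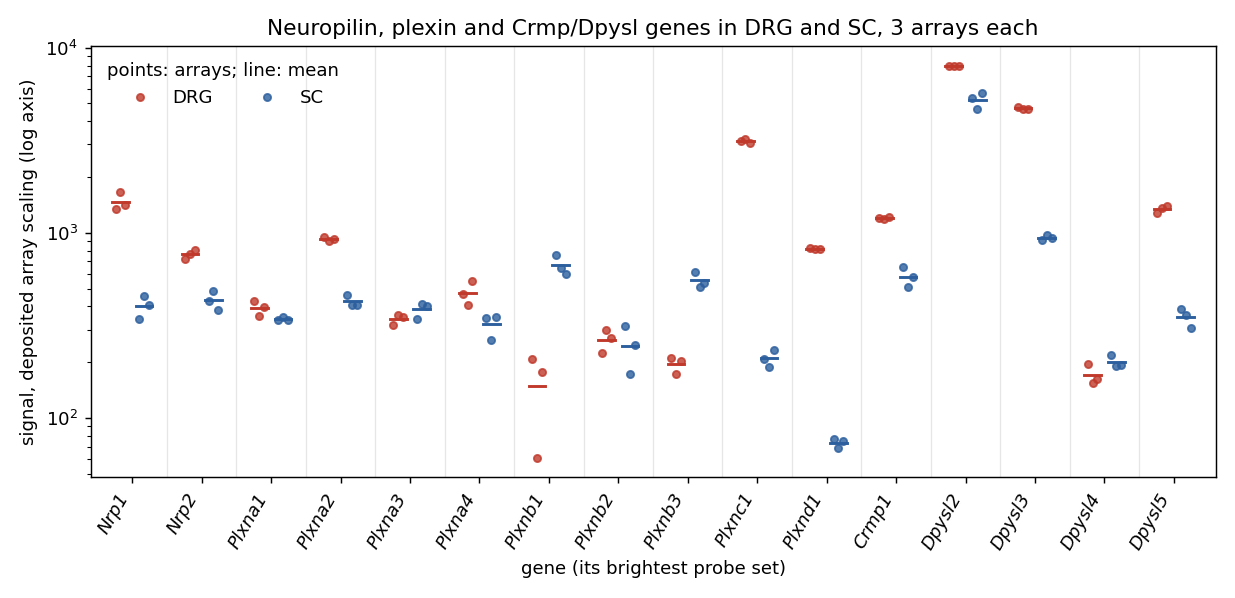
Signals of the neuropilin, plexin and Crmp and Dpysl genes on each array (log y axis, deposited scaling), DRG in red and SC in blue, with a line at the mean of 3 pools. Plxnc1 stands at 3045 to 3216 in DRG and 188 to 233 in SC and Plxnd1 at 813 to 824 in DRG and 68.6 to 76.6 in SC, while Plxnb1 and Plxnb3 stand lower in DRG than in SC. Heights of different genes cannot be compared.

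The promoters of the 4 plexins with at least 2-fold differences on every scaling are shown because 2 of these receptors were higher in DRG and 2 in SC, and they were chosen after their values were seen. Each holds 250 bases before to 50 after the RefSeq start of the gene in build GRCm38.p6, written in the direction of transcription. Capitals mark matches on either strand to a GC box (GGGCGG) or a SOX-type motif (AACAAAG).
Plxnc1 promoter (chr10:94944796-94945095, minus strand): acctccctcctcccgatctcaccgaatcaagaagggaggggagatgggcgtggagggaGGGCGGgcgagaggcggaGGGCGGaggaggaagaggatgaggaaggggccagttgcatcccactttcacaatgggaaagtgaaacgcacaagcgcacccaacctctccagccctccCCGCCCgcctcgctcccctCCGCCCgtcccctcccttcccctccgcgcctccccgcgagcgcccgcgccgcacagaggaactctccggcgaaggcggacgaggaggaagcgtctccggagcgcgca
Plxnd1 promoter (chr6:115994956-115995255, minus strand): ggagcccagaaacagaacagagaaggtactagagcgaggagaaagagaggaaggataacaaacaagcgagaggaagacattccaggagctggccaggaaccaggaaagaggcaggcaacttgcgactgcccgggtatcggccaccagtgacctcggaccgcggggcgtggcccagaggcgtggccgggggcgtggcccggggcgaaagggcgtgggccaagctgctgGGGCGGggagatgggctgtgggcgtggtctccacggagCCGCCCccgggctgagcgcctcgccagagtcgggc
Plxnb1 promoter (chr9:109095186-109095485, plus strand): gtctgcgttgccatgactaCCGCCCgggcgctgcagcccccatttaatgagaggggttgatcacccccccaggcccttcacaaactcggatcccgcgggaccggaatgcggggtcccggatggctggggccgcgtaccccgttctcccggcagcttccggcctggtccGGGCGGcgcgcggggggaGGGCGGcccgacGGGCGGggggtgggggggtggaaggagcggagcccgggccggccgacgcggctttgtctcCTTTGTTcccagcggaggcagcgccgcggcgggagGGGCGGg
Plxnb3 promoter (chrX:73756853-73757152, plus strand): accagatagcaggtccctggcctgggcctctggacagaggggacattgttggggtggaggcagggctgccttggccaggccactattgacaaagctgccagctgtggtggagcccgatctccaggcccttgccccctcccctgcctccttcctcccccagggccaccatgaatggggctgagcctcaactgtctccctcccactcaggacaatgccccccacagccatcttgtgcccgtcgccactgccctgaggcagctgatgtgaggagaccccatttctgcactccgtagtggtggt

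A search for the TATA box, spelled TATAAA, found no match in these windows on either strand. Neither did a search for the CCAAT box, spelled by its name. An E-box, with the letters CACGTG, was likewise without a match. The homeodomain motif, which was read as TAATTA on each strand, had no match either. None of the 6 motifs contains another. Plxnc1 held 4 GC boxes, Plxnd1 held 2 and Plxnb1 held 5 together with 1 SOX-type match, and Plxnb3 held no match to any of the 6. Plxnb3 had 4 CG dinucleotides in its window, where Plxnc1 had 30, Plxnd1 had 23 and Plxnb1 had 36. RefSeq's promoter set held 40 promoters, of 28 of the 36 genes. A GC box was found in 30 of the 40, against 35.7% of all 32851 promoters, and the SOX-type motif in 2, against 5.85%. The TATA box and the homeodomain motif were in 0 of the 40, against 13.6% and 5.29%. The CCAAT box was in 7, against 37.4%, and the E-box in 3, against 7.15%. The base composition differed too, with a median GC content of 63.17% in the 40 promoters, against 52.67% in all promoters. Their median number of CG dinucleotides was 18.5, against 7. The part of this composition in the motif shares was not tested. Several promoters can belong to 1 gene, and these matches describe letters, not binding.

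The collapsin response mediator proteins, cytoplasmic proteins that bind tubulin and relay Sema3a signals, were called higher in DRG in 4 of 5 cases on the deposited scaling, where all genes gave 31.8%. On each other scaling 3 of 5 were, and with unscaled signals 1 was called higher in SC. All genes there gave 20.5% and 19.3% toward DRG, and 19.7% toward SC with unscaled signals. Dpysl3 had signals of 4786, 4679.9 and 4656 in DRG pools, against 918, 968 and 934 in SC pools, 5.01-fold higher in DRG with a difference of 2.30 (95% interval 2.16 to 2.45, limma adjusted p = 1.92e-08). Its other probe sets differed by 2.62 and 1.23, both called. Dpysl5 had signals of 1286, 1361 and 1389 in DRG pools, against 388, 362 and 307 in SC pools, 3.83-fold higher in DRG (limma adjusted p = 5.74e-07). Crmp1 had signals of 1199, 1182 and 1210.1 in DRG pools, against 653, 509 and 576 in SC pools, 2.08-fold higher in DRG (limma adjusted p = 2.35e-05). These 3 genes were called on all 3 scalings and their pools did not overlap.

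Dpysl2, which promotes microtubule assembly in growing axons, had signals of 7998, 7984 and 8005 in DRG pools, against 5344, 4643 and 5718 in SC pools. The DRG pools lay within a narrow range above the SC pools, with a difference of 0.61 (limma adjusted p = 0.000517). This was not called under quantile normalization at 0.098 (limma adjusted p = 0.322) or with unscaled signals at 0.24 (limma adjusted p = 0.0604). Dpysl4 had signals of 195, 155 and 162 in DRG pools, against 218, 191 and 194 in SC pools, which overlapped, at -0.22 (limma adjusted p = 0.28), and it was called higher in SC with unscaled signals alone, at -0.56 (limma adjusted p = 0.00912).

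Directions could be compared between probe sets of a gene only where at least 2 were called. Of the 89 probe sets, 41 were called higher in DRG and 16 higher in SC, against 22.7% and 9.79% of all probe sets (32.4% in either direction), and 21 were not above background in either tissue. Among 29 genes with several probe sets, 14 had at least 2 called. In 12 of these the called probe sets had the same direction, including 9 genes with every probe set called, and in 2, Sema4d and Sema6d, they had both directions. Differences of at least 2-fold were called for 27 probe sets toward DRG and 11 toward SC, against 8.45% and 4.79% of all. The pools did not overlap for 43 higher in DRG and 20 higher in SC, against 28.4% and 15.1%. With quantile normalization 33 and 19 were called, against 14.9% and 14.4%, and without scaling 28 and 24, against 13.3% and 19.9%.

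Other genes of the pathway, a list of 63 co-receptors, cytoplasmic partners and further ligands of these receptors, had calls toward both tissues. Of 58 measured, 26 were called higher in DRG and 10 in SC, where all genes gave 31.8% and 9.7%, and their median difference was 0.27. With quantile normalization 16 were higher in DRG and 17 in SC (median -0.11), where all genes gave 20.5% and 16%. Without scaling 15 were higher in DRG and 18 in SC (median -0.058), where all genes gave 19.3% and 19.7%. The list thus has no settled direction, and the shares of all genes also moved away from DRG and toward SC on these scalings. The 5 called genes with the largest difference toward DRG were Mical1, L1cam, Rras, Itgb1 and Mst1r. Mical1, an actin-oxidising enzyme that binds A plexins, had signals of 585, 344 and 400.2 in DRG pools, against 49.4, 43.9 and 47.9 in SC pools, at least 2.80-fold higher in DRG (limma adjusted p = 4.64e-06). L1cam, an adhesion molecule that pairs with Nrp1, had signals of 6472, 5476 and 5719 in DRG pools, against 1156, 1042 and 1075 in SC pools. Rras, a small GTPase on which plexins act, had signals of 891, 904 and 1032 in DRG pools, against 200.3, 169 and 159 in SC pools, 5.36-fold higher in DRG (limma adjusted p = 3.63e-07). Itgb1, the beta-1 integrin bound by Sema7a, differed by 1.73 (limma adjusted p = 1.94e-06). Mst1r, a receptor tyrosine kinase that pairs with B plexins, differed by 1.72 but was not above background in either tissue.

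Toward SC, the 5 genes were Rnd2, Rnd1, Flt1, Pgf and Vcan. Rnd2, a small GTPase, had signals of 603, 395 and 576 in DRG pools, against 3174, 2757 and 3082 in SC pools, 5.81-fold higher in SC (limma adjusted p = 1.38e-06). Rnd1, which binds the cytoplasmic part of plexins, had signals of 68.1, 117 and 19.2 in DRG pools, against 356, 413 and 381 in SC pools, with no DRG pool above background and at least 2.40-fold higher in SC (limma adjusted p = 0.00107). Both GTPases thus had DRG pools well below SC pools. Vcan, a matrix proteoglycan, was not above background in DRG and at least 1.18-fold higher in SC (limma adjusted p = 0.0039). The 10 genes named toward either tissue kept their calls and directions on the other scalings.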

How the data were processed

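RNA of 3 DRG and 3 SC pools was hybridised to 1-colour arrays of 45101 probe sets, including 64 controls. The submitters' processing notes name MAS5, without a version. The deposited values are linear ratios, in which, as read from the values, a signal was divided by its array's factor and by the median of the 6 arrays for that probe set, or by 0.1 where that median was smaller. Earlier results of these data were known when the genes, lists, tests and alternatives were chosen.

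Signals were recovered as the smallest multiple that put all 6 values on MAS5's steps of 0.1, with 0.1 chance matches allowed per probe set. This gave 45095 probe sets, including all 89 described here, and 6 were left out. In a simulation of 10000 probe sets, 98.55% came back exactly and 1.45% were off by a factor common to the 6 arrays, which changes a level but hardly a difference. Signals were then scaled as the authors scaled the arrays. The alternative called unscaled leaves out this step only.

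Probe sets were named from the supplied platform annotation, in which 34958 name 1 gene, 932 several and 9147 none, beside the controls. All 36 symbols matched RefSeq by Entrez identifier. The fit used limma 3.58.1 in R 4.3.3 (lmFit, eBayes with intensity trend, two-sided) over 45031 non-control probe sets, and was tested on simulated data. Precision is limited by the number of arrays, and no low signal was filtered out. Other steps ran in Python 3.11.15 with matplotlib 3.10.9, numba 0.67.0, numpy 2.4.6 and pandas 2.3.3. All 36 genes are named, and of the pathway list the 5 called genes with the largest difference in each direction. Cell type markers are given as sums, with single markers named where they stand beside a result or differ from others of their list. Probe sets with a, s or x in their suffix, which match more than a single transcript, are called cross-matching. The transcripts matched can be of the same gene, so the term does not by itself mean a match to other genes. The background level used 34 of 39 listed genes. The alternatives changed the array scaling, value tested, pseudocount, probe set choice, variance model and replicates.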

Additional observations from a re-analysis of the deposited data

How the results depend on the processing

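Of 610 recomputed values of the 36 genes under 17 alternatives, 541 kept direction and call, 36 lost their call, 14 gained one and 19 changed sign, and 17 genes kept direction and call throughout. With each pool left out in turn, 16 to 19 genes were called higher in DRG and 6 to 8 in SC, 35 to 40 and 13 to 17 of the member probe sets, and 24 to 28 and 7 to 9 of the pathway genes. When the probe sets of a gene were averaged, 12 genes were called higher in DRG and 9 in SC, against 19 and 7 with the brightest. The shares of all genes and probe sets with a pool left out or with averaging are not given here. Under these alternatives a change in the members thus cannot be told from a change in all genes. For the pathway genes the counts were 16 and 17 under quantile normalization and 15 and 18 with unscaled signals, against 26 and 10. The shares of all genes moved the same way, to 20.5% and 16% and to 19.3% and 19.7%, from 31.8% and 9.7%. With unscaled signals the differences turned to -0.17 for Plxna1, -0.21 for Plxnb2, -0.078 for Sema5a, -0.32 for Sema6c and -0.034 for Sema6d, and under quantile normalization to -0.084 for Plxna1, -0.055 for Plxnb2, -0.41 for Sema6c and -0.25 for Sema6d. With averaged probe sets they turned to -0.25 for Plxna1, -0.21 for Sema4d and -0.19 for Sema6d. With a pool left out, Sema6c ran from -0.27 to 0.43, with -0.082, -0.055 and -0.029 without DRG replicate 2, DRG replicate 3 and SC replicate 3, Plxnb2 from -0.081 without SC replicate 2 to 0.32 without SC replicate 1, and Sema7a from -0.38 without SC replicate 1 to 0.039 without SC replicate 2, with 0.011 without SC replicate 3. The scalings differ by construction in the level of DRG arrays against SC arrays. The cause of the other changes was not tested.

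The pools are labelled independent and no pairing is stated, so the replicate numbers were not taken to pair the pools. Deviations from the tissue mean correlated at -0.010, -0.021 and 0.0036 between same-numbered pools and at -0.014 to 0.025 between others, over all probe sets. With 3 arrays per tissue, such correlations cannot show whether pools came from the same mice. With the replicate number as a block, the call of Sema3c was lost at 0.37 (limma adjusted p = 0.0645), and the other 35 genes kept direction and call.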

Other observations

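Neuropilins also bind vascular endothelial growth factors, and the pathway list held 7 genes of this arm, grouped here after their values had been seen. Of these, 3 were called higher in SC, where all genes gave 9.7%, and 4 were not called. Whether the group differs from other genes or from the neuropilins was not tested. Flt1, a receptor of these factors, had signals of 89.8, 110.5 and 159.7 in DRG pools, against 303, 333 and 274 in SC pools, 2.60-fold higher in SC with a difference of -1.26 (limma adjusted p = 0.000645). Vegfb, a ligand, had signals of 803, 665 and 812 in DRG pools, against 1133, 1154 and 1198 in SC pools, at -0.61 (limma adjusted p = 0.000548). Pgf, a further ligand, differed by -1.06 (limma adjusted p = 0.014) but was not above background in either tissue. Kdr had signals of 193, 157 and 174 in DRG pools, against 187, 194 and 166 in SC pools, and Vegfa had signals of 365, 404 and 450.2 in DRG pools, against 329.8, 405 and 458 in SC pools. Neither was called, at -0.060 (95% interval -0.37 to 0.25) and 0.038 (95% interval -0.26 to 0.33). Vegfc and Flt4 were not called either, at -0.60 and -0.092, and were not above background in either tissue. Kdr and Vegfc were called higher in SC with unscaled signals alone (limma adjusted p = 0.0418 and 0.0424). Flt1, Vegfb and Pgf were called higher in SC on all 3 scalings.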
